A study of Mus musculus with 23 samples.

Results

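Acot1, Acot2, Ucp2, Ucp3, Angptl4, Cpt1a, Ehhadh, Plin2 and Plin5 are target genes of the peroxisome proliferator-activated receptors (PPARs), and their products handle fatty acids. They were taken from the tables by symbol, with earlier results of these data known, and all 9 were found among the 12831 genes counted in quadriceps and the 16962 counted in epididymal fat. The mice were male C57BL/6J, 8 weeks old at surgery. No tumor mice had sham surgery, KPC mice received KPC pancreatic tumor cells in the pancreas, and KPC IL6KO mice received KPC cells whose Il6 gene CRISPR/Cas9 editing had disrupted. The KPC control line was a clone transfected without a guide, and each line was 1 clone, so that the effect of the edit cannot be told apart from other differences between 2 clones. The study also reported larger tumors in KPC than in KPC IL6KO mice, and no correlation of tumor mass with muscle or fat pad mass. The mice themselves carried an intact Il6 gene, and the tissue libraries therefore do not check the edit. All groups were euthanized when 1 group reached the endpoint. RNA of quadriceps was sequenced from 3 mice without tumor, 4 with KPC and 4 with KPC IL6KO tumors, and RNA of epididymal fat from 4 mice of each group, with 1 library per mouse and the tissues prepared separately. Another no tumor quadriceps sample was removed by the authors and was not analysed here. The comparison asks how the genes stood in muscle and fat of mice bearing a tumor with or without tumor cell IL-6.

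PPARs are nuclear receptors that bind fatty acids and pair with a retinoid X receptor (RXR) on DNA. PPARα and PPARδ act mainly in tissues that burn fat, such as liver and muscle, and PPARγ is the main receptor of adipocytes. A rise of fatty acids, as in fasting, is known to raise many of their targets. The genes have different roles in fat use. Acot1 and Acot2 encode thioesterases that release free fatty acid from acyl-CoA in the cytosol and in mitochondria. Ucp2 and Ucp3 encode carriers of the mitochondrial inner membrane, Ucp3 mainly in skeletal muscle. Cpt1a encodes an enzyme that commits long-chain fatty acids to mitochondria, and Ehhadh an enzyme of peroxisomal oxidation. Plin2 and Plin5 encode lipid droplet coats, and Angptl4 a secreted inhibitor of lipoprotein lipase.

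In GRCm38 (GENCODE M21), Acot2 (ENSMUSG00000021226, chr12:83987861-83993873) lies on the plus strand 15616 bases before Acot1 (ENSMUSG00000072949, chr12:84009490-84018371). Ucp3 (ENSMUSG00000032942, chr7:100472990-100486432) lies 6904 bases before Ucp2 (ENSMUSG00000033685, chr7:100493337-100502020), also on the plus strand. The others are Cpt1a (ENSMUSG00000024900, chr19:3322334-3385733, plus), Angptl4 (ENSMUSG00000002289, chr17:33773750-33781830, minus), Plin5 (ENSMUSG00000011305, chr17:56111601-56117596, minus), Ehhadh (ENSMUSG00000022853, chr16:21761287-21787807, minus) and Plin2 (ENSMUSG00000028494, chr4:86648386-86670060, minus). Acot1 and Acot2 are near copies, and of the 2198 windows of 75 bases in an Acot1 transcript 26.4% were found unchanged in other genes, mostly in Acot2. The share was 21.2% for Acot2, 5.9% for Ucp2, all in the overlapping gene Dnajb13 on the opposite strand, 1.6% for Plin2 and 0 for the remaining members. Antisense or small RNA genes overlap Ucp3 (Gm10603) and Ehhadh (Gm24898) on the opposite strand. Since only uniquely mapped reads were counted, part of the Acot1 and Acot2 message may be missing from the counts, and the split between them is uncertain.

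A PPAR with its RXR binds AGGTCA repeated with 1 base between the copies. RefSeq (GRCm38.p6) gave a window of 250 bases before and 50 after the start for 8 of the 9 genes, 9 windows in all as Plin5 had 2. On either strand, AGGTCA was present in 16.3% of 32851 mouse promoters, the complete repeat of both copies in 0.0396%, and a repeat with at most 2 mismatches in 3.86%. Among the members, Ucp3 held AGGTCA at positions -149 and -44 from the start, Plin5 at -170, Plin2 at -218 and Cpt1a at -94, the last 2 on the opposite strand. Plin5 held another at position 14 of its other window. No AGGTCA was found in the windows of Acot1, Acot2, Ucp2 and Ehhadh, and none held the complete repeat. Ucp3 came nearest with AGGTTTCAGGTCA at -51, and Plin2 with AGGTCAGGGGTCC at -225 on the opposite strand, both with 2 mismatches. The 250 bases before the start are given, 5′ to 3′ on the gene's strand with AGGTCA or its complement TGACCT in capitals, for the genes with the largest changes in muscle and for Plin2, whose window resembles that of Ucp3 in holding a near repeat but whose level did not pass the test there. They are Acot1 at chr12:84009252-84009501, Acot2 at chr12:83987611-83987860, Ucp3 at chr7:100472741-100472990, Plin5 at chr17:56117549-56117798 and Plin2 at chr4:86670060-86670309.
Acot1: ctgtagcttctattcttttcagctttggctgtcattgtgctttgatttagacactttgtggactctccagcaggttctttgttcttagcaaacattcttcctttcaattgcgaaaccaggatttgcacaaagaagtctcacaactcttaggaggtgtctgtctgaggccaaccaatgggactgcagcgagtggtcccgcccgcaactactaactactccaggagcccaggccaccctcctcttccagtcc
Acot2: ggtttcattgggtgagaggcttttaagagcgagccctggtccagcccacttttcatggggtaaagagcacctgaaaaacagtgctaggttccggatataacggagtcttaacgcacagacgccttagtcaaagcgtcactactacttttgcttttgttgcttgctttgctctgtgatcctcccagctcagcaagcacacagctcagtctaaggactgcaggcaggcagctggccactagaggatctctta
Ucp3: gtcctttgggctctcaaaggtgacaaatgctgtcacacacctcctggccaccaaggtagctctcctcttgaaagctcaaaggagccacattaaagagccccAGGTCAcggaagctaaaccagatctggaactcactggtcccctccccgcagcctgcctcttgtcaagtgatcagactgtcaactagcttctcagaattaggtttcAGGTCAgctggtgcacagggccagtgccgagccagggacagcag
Plin5: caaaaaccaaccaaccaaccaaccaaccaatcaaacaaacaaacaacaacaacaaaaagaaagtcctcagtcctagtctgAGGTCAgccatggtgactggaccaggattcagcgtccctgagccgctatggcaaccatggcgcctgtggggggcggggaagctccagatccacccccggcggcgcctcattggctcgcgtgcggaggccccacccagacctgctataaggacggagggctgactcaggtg
Plin2: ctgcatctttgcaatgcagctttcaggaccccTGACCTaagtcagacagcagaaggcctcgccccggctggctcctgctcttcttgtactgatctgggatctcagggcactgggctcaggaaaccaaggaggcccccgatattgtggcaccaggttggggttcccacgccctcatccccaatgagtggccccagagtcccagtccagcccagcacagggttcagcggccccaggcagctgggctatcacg
A match of letters describes the window and is not a binding site that was measured.

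Counts per library summed to between 19259763 and 74907810 in quadriceps and between 26306377 and 56308545 in fat. Levels are given as CPM, a gene's counts scaled to a common library size after TMM normalization, on which scale 3 counts, the limit under which a level was not distinguished from 0, came to at most 0.154 CPM, for counting error only. A gene was called at a false discovery rate (FDR) of at most 0.05 in edgeR's quasi-likelihood test over all genes of a tissue and a fold change of at least 1.5. Each log2 fold change is followed by its standard error (SE). The 8 muscle fiber markers (Acta1, Ckm, Mb, Myh1, Myh2, Myh4, Tnnt3 and Mylpf) were all present in quadriceps, where they summed to between 149400 and 183900 CPM in no tumor, between 114300 and 131600 CPM in KPC and between 169800 and 185800 CPM in KPC IL6KO mice, and 2 of them were called lower in KPC against no tumor.

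In quadriceps of KPC mice 5 of the 9 genes rose and 1 fell against no tumor, namely the thioesterase genes Acot1 and Acot2, the carrier genes Ucp3 and Ucp2 and the droplet coat gene Plin5 as higher, and Cpt1a as lower. Much of the transcriptome changed in the same comparison, with 26.7% of the 12831 genes called higher and 29% called lower, 55.7% together, so that 6 of 9 called is close to the share of all genes. The median log2 fold change was 1.24 for the 9 genes and -0.03 for all genes. In KPC IL6KO mice 0 of the 9 genes were called against no tumor, and 0% of all genes, while 887 genes, 3 of them members, had an unadjusted p under 0.05. The likelihood ratio test and DESeq2 called 0.74% and 0.781% of all genes there and 0 members. Between KPC and KPC IL6KO mice 6 of the 9 genes were higher and 1 lower in KPC, against 26.4% and 27.3% of all genes, 53.6% together. The mice did not overlap for 6 of the 9 genes in KPC against no tumor (65.3% of all genes) and for 6 in KPC against KPC IL6KO (62% of all genes). The comparisons share samples and are given side by side.

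Acot1 was at 0.797, 0.764 and 0.768 CPM in the no tumor mice, at 13.03, 11.3, 32.0 and 53.4 CPM in the KPC mice, and at 1.48, 1.05, 7.88 and 1.41 CPM in the KPC IL6KO mice. All KPC mice were above all others, and all KPC IL6KO mice were above no tumor, 1 of them well above the other 3. KPC against no tumor gave a log2 fold change of 5.14 (SE 0.89, edgeR FDR 0.000357) and that of KPC against KPC IL6KO was 3.20 (SE 0.69, edgeR FDR 0.00142), or 4.38 without KPC IL6KO 3. Against no tumor, KPC IL6KO had a log2 fold change of 1.93 (SE 0.82, edgeR FDR 0.65), which was not called, and the value without KPC IL6KO 3 was 0.75.

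Acot2 was at 10.9, 8.56 and 8.71 CPM in no tumor, at 93.9, 80.1, 136 and 138 CPM in KPC, and at 13.8, 12.5, 35.3 and 11.95 CPM in KPC IL6KO mice. The order of the groups was that of Acot1, without overlap, and the same KPC IL6KO mouse stood above its group. Its log2 fold change was 3.57 (SE 0.41, edgeR FDR 1.96e-05) for KPC against no tumor and 2.60 (SE 0.35, edgeR FDR 5.17e-05) for KPC against KPC IL6KO. KPC IL6KO against no tumor gave 0.97 (SE 0.37, edgeR FDR 0.578), and 0.44 without KPC IL6KO 3. Acot1 and Acot2 were thus the 2 of the 9 genes whose KPC IL6KO mice did not overlap with no tumor, while 15.5% of all genes had no overlap in that comparison.

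Ucp3 was the member with the highest level per length in muscle, at 56.3 ± 10.9 CPM per kilobase of exon in no tumor (SD, n = 3) and 208.5 ± 81.0 in KPC mice (SD, n = 4). Its CPM were 212, 143 and 174 in no tumor, 1007, 580, 404 and 623 in KPC, and 230, 113, 253 and 142 in KPC IL6KO mice. The KPC mice did not overlap with the other groups, which overlapped with each other. Its log2 fold change was 1.89 (SE 0.34, edgeR FDR 0.00048) for KPC against no tumor and 1.83 (SE 0.31, edgeR FDR 0.000279) for KPC against KPC IL6KO, and it was 0.06 (SE 0.32, edgeR FDR 1) for KPC IL6KO against no tumor.

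Ucp2, which is expressed in many cell types including macrophages, was at 17.9, 17.7 and 20.8 CPM in no tumor, at 38.2, 50.6, 34.9 and 53.7 CPM in KPC, and at 18.5, 11.3, 19.0 and 18.1 CPM in KPC IL6KO mice. Every KPC mouse was above the 7 others. On the log2 scale the difference was 1.24 (SE 0.20, edgeR FDR 0.000242) for KPC against no tumor, 1.41 (SE 0.19, edgeR FDR 4.89e-05) for KPC against KPC IL6KO, and -0.17 (SE 0.20, edgeR FDR 1) for KPC IL6KO against no tumor. The 8 macrophage markers summed to between 85.7 and 120.0 CPM in no tumor, 40.6 and 153 CPM in KPC mice and 85.1 and 135 CPM in KPC IL6KO mice, ranges that overlapped, with 2 markers (Cd14 and Cd68) called higher and 2 (Adgre1 and Mrc1) lower in KPC against no tumor. The 4 neutrophil markers in the table were higher in KPC, at 4.50 to 21.8 CPM in sum against 0.359 to 0.779 CPM in no tumor and 2.14 to 4.13 CPM in KPC IL6KO mice. All 5 fibroblast markers were lower in KPC, at 159 to 264 CPM in sum against 919 to 1008 CPM in no tumor and 512 to 779 CPM in KPC IL6KO mice. Their part in the changes of the 9 genes was not tested, and a change in the number of cells of a type and a change in RNA per cell cannot be told apart in these samples.

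Plin5, the droplet coat that ties droplets to mitochondria in muscle, was at 47.1, 43.3 and 27.3 CPM in no tumor, at 114, 87.8, 150 and 211 CPM in KPC, and at 43.9, 40.2, 76.7 and 32.8 CPM in KPC IL6KO mice. KPC did not overlap with the others, and the highest KPC IL6KO mouse was again replicate 3. On the log2 scale the difference was 1.84 (SE 0.35, edgeR FDR 0.000713) for KPC against no tumor, 1.54 (SE 0.32, edgeR FDR 0.00105) for KPC against KPC IL6KO and 0.30 (SE 0.34, edgeR FDR 1) for KPC IL6KO against no tumor. The other coat gene, Plin2, was at 46.4, 68.5 and 35.3 CPM in no tumor, at 39.3, 36.7, 75.6 and 30.1 CPM in KPC, and at 40.6, 32.6, 35.7 and 26.1 CPM in KPC IL6KO mice, and its 3 groups overlapped. Its log2 fold change for KPC against no tumor was -0.14 (SE 0.31, edgeR FDR 0.689), with an interval of 2 SE on either side from -0.75 to 0.47.

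**Figure D1:**
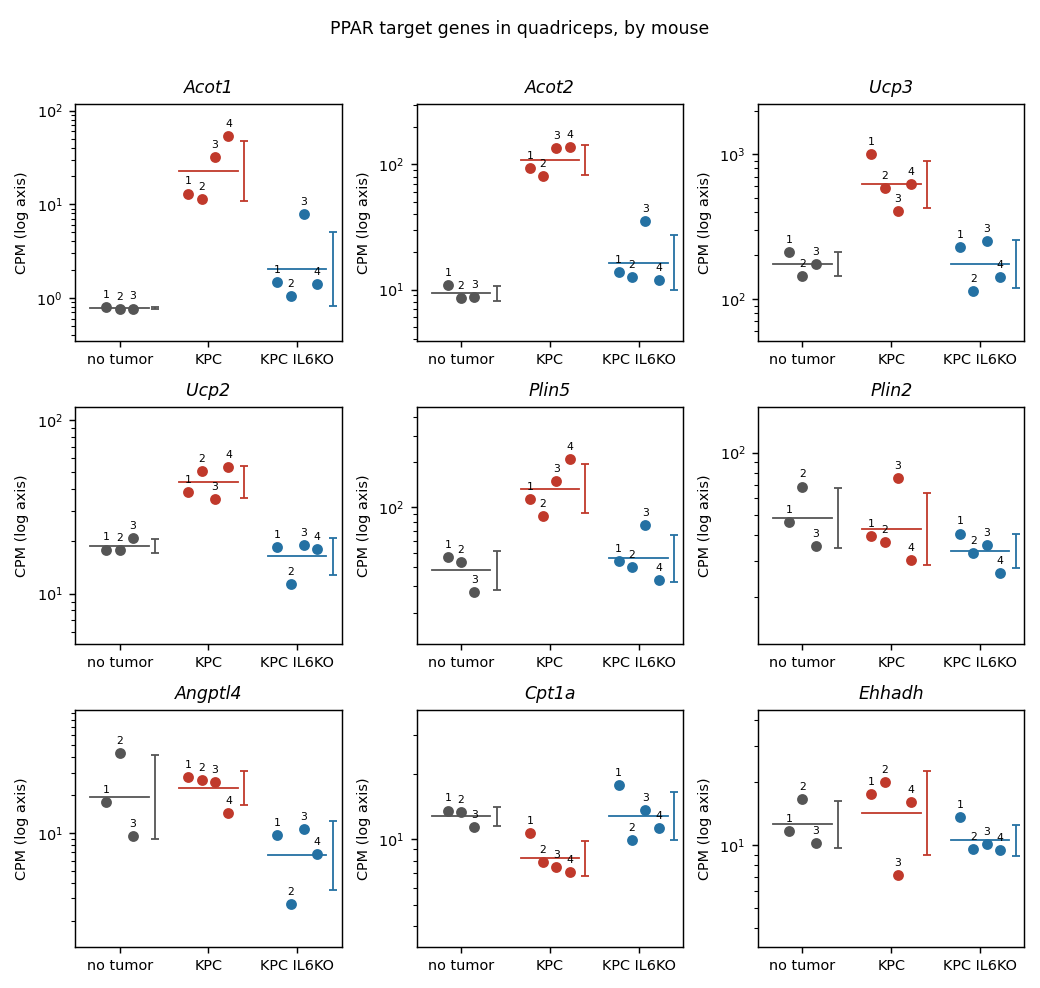
CPM of the 9 genes in quadriceps on log axes, 1 point per mouse with its replicate number; lines and bars are the mean and SD of log2 CPM (n = 3 no tumor, 4 KPC, 4 KPC IL6KO). Acot1, Acot2, Ucp3, Ucp2 and Plin5 had all 4 KPC mice above the other 7, and KPC IL6KO 3 was the highest of its group for Acot1, Acot2, Ucp3, Ucp2 and Plin5.

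Cpt1a was the member that fell. Its CPM were 13.6, 13.4 and 11.4 in no tumor, 10.7, 7.89, 7.50 and 7.08 in KPC, and 17.8, 9.91, 13.7 and 11.3 in KPC IL6KO mice. The KPC mice were all below no tumor, and 1 of them overlapped with KPC IL6KO. The log2 fold change was -0.63 (SE 0.20, edgeR FDR 0.0171) for KPC against no tumor and -0.67 (SE 0.19, edgeR FDR 0.00845) for KPC against KPC IL6KO, both only just past the fold threshold of 0.585 on the log2 scale. The call against no tumor was lost without no tumor 1 (-0.55), no tumor 2 (-0.59), KPC 3 (-0.58) or KPC 4 (-0.56), and the call against KPC IL6KO without KPC IL6KO 1 (-0.49).

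Angptl4 differed between the tumor groups but not detectably between KPC and no tumor. It was at 17.6, 43.3 and 9.38 CPM in no tumor, at 28.1, 26.4, 25.5 and 14.4 CPM in KPC, and at 9.65, 2.72, 10.8 and 6.74 CPM in KPC IL6KO mice. All KPC mice were above all KPC IL6KO mice, and the no tumor mice spread over both. Its log2 fold change was 1.66 (SE 0.48, edgeR FDR 0.00874) for KPC against KPC IL6KO, 0.00 (SE 0.50, edgeR FDR 0.999) for KPC against no tumor and -1.66 (SE 0.50, edgeR FDR 0.422) for KPC IL6KO against no tumor. The last value had an unadjusted p of 0.00665 and was -0.87 without no tumor 2. Adipocytes also express Angptl4 and Plin2, and the 8 adipocyte markers summed to 1071, 2725 and 556 CPM in no tumor, to 897, 1733, 272 and 155 CPM in KPC and to 653, 215, 502 and 368 CPM in KPC IL6KO mice. No tumor 2, the highest for Angptl4, had the highest adipocyte sum, and KPC IL6KO 2, the lowest for Angptl4, had the lowest sum of its group. The part of adipocytes between the fibers in these values was not tested.

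Ehhadh was at 11.6, 16.7 and 10.2 CPM in no tumor, at 17.6, 20.2, 7.15 and 16.1 CPM in KPC, and at 13.6, 9.59, 10.1 and 9.43 CPM in KPC IL6KO mice. KPC 3 was the lowest of all 11 and the other KPC mice were among the highest. Its log2 fold change was 0.24 (SE 0.30, edgeR FDR 0.486) for KPC against no tumor and 0.51 (SE 0.28, edgeR FDR 0.119) for KPC against KPC IL6KO, which became 0.75 and was called without KPC 3.

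The receptors and coregulators were counted as a list of 17 genes, of which 6 rose and 2 fell in KPC quadriceps against no tumor, with a median log2 fold change of 0.32. The shares of all genes were 26.7% called higher and 29% called lower. Ppard, a PPAR of oxidative muscle, was at 36.5 to 39.7 CPM in no tumor, 48.9 to 69.2 CPM in KPC mice and 42.0 to 45.2 CPM in KPC IL6KO mice, and its rise of 0.69 (SE 0.12, edgeR FDR 0.000307) was called. Rxrb rose by 0.86 (SE 0.14, edgeR FDR 0.000202), and Rxrg went from 69.4 to 83.3 CPM in no tumor to 8.41 to 16.4 CPM in KPC (-2.56, SE 0.19, edgeR FDR 1.37e-06). Per kilobase of exon, Rxrg was at 32.5 ± 3.29 CPM in no tumor and 5.5 ± 1.43 CPM in KPC mice. Rxra was at 43.7 ± 3.92 and 64.3 ± 9.38 CPM, and Rxrb at 13.6 ± 0.349 and 24.8 ± 4.76 CPM (SD, n = 3 and 4). Rxra had a log2 fold change of 0.56 (SE 0.13, edgeR FDR 0.00198), under the fold threshold, and was past it with DESeq2 or RLE normalization (both 0.60) and without no tumor 3 (0.63), KPC 2 (0.62) or KPC 3 (0.60). Ppara (0.22, SE 0.31) and Pparg (-0.23, SE 0.49) were not called, at FDR of 0.541 and 0.683 in edgeR. In KPC IL6KO mice 0 of the 17 genes were called against no tumor, and Rxrg was at 65.9 to 82.1 CPM. Of the coregulators, Lpin1, a partner of PPARα that also makes diacylglycerol, rose by 1.97 (SE 0.20, edgeR FDR 8.48e-06), and Ppargc1b, a coactivator, changed by -2.87 (SE 0.34, edgeR FDR 2.2e-05), both chosen after their values were seen. These are RNA levels. For protein, measured by Western blot of quadriceps, the study reported that UCP2 and PGC1B did not differ between groups. It reported more UCP3 protein with KPC but not with KPC IL6KO tumors.

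Other known PPAR targets did not move as 1 group. Of 44 listed genes 39 were in the quadriceps table, and 9 rose and 5 fell in KPC against no tumor, with a median log2 fold change of 0.15. Of all genes 26.7% were called higher and 29% lower. Pdk4, the kinase that restrains glucose oxidation, rose most, from 273 to 637 CPM in no tumor to 4555 to 6002 CPM in KPC mice (3.56, SE 0.47, edgeR FDR 4.89e-05), with 443 to 1610 CPM in KPC IL6KO mice. The lipase gene Pnpla2 rose by 2.15 (SE 0.22), the droplet coat gene Plin4 by 2.05 (SE 0.24) and the isomerase gene Eci2 by 1.54 (SE 0.21), with edgeR FDR of 1.01e-05, 2.43e-05 and 6.86e-05. Gpd1 (-2.51, SE 0.30), a glycerol phosphate dehydrogenase, and Aqp7 (-2.35, SE 0.46), a glycerol channel, were lower at edgeR FDR of 2.4e-05 and 0.000796. Acaa1b (-2.47, SE 0.80, edgeR FDR 0.0165) and Mgll (-1.28, SE 0.37, edgeR FDR 0.00892) were lower too, but not without no tumor 2, when their values were -1.72 and -0.82, and Acaa1b was -3.74 without KPC 2. The level of Acaa1b was low, at 0.746 ± 0.552 CPM per kilobase of exon in no tumor (SD, n = 3) and 0.138 ± 0.166 in KPC mice (SD, n = 4). No tumor 2 also had the highest adipocyte marker sum, at 2725 CPM. All 8 adipocyte markers had a log2 fold change below 0 in this comparison, and 2 were called lower. The part of adipocytes in the lower values was not tested. The count of lower genes was 3 without no tumor 2, 9 without KPC 2, and 8 without no tumor 3 or KPC 4. In KPC IL6KO mice 0 of the 39 were called against no tumor, and 1 by the likelihood ratio test, which was lower.

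**Figure D2:**
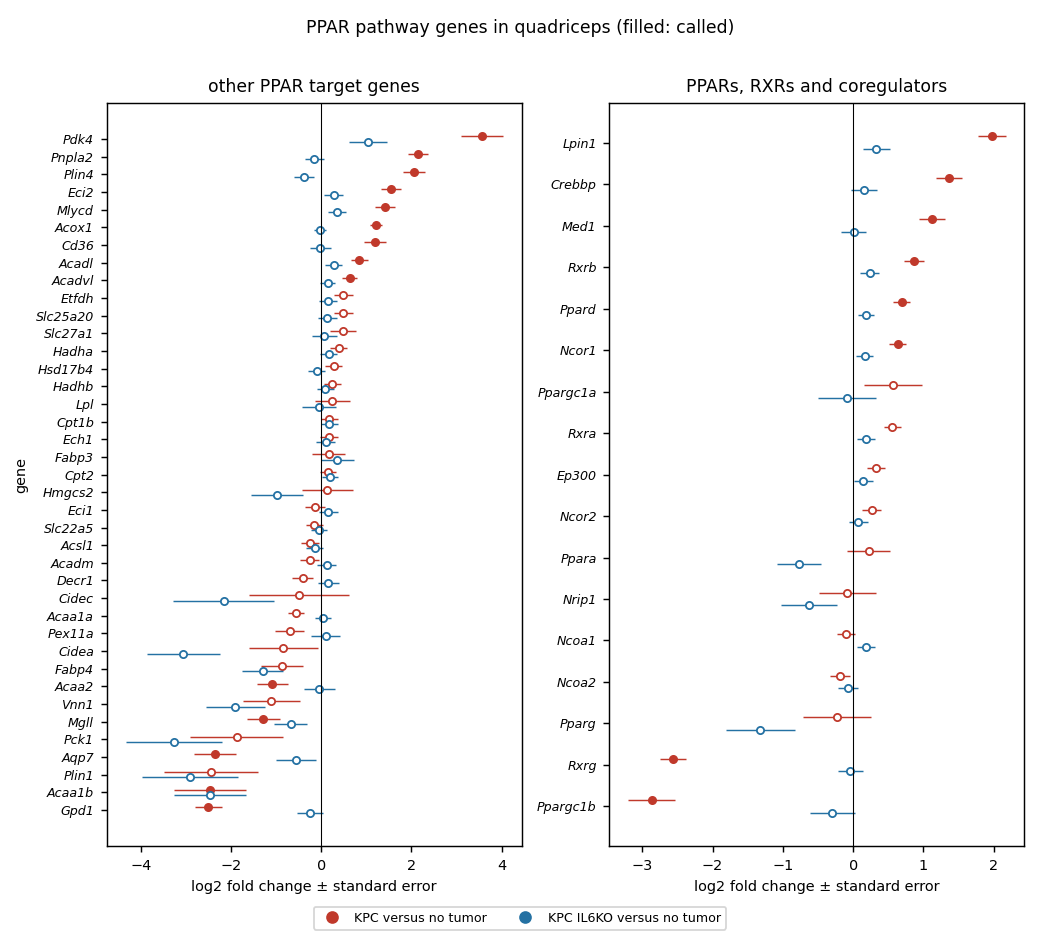
Log2 fold changes (± SE) in quadriceps against no tumor of the 39 other PPAR targets and the 17 receptor and coregulator genes in the table, for KPC in red and KPC IL6KO in blue; filled points were called. Targets ran from Pdk4 at 3.56 to Gpd1 at -2.51 in KPC, and no KPC IL6KO point was called.

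Near copies of the members were looked up as well. In quadriceps 7 of 12 such genes were in the table, and 2 of them, Plin4 and Acot4, rose in KPC against no tumor, beside 26.7% of all genes. The lists overlap, and Plin4 was already counted among the other PPAR targets. Acot4, a peroxisomal thioesterase gene beside Acot1, was at 0.260, 0.57 and 0.256 CPM in no tumor, at 2.09, 1.59, 2.14 and 2.45 CPM in KPC, and at 0.374, 0.140, 0.519 and 0.103 CPM in KPC IL6KO mice. KPC stood clear of both other groups, with a log2 fold change of 2.46 (SE 0.51, edgeR FDR 0.0011) against no tumor. Acot4 shares 35 of the windows of Acot1 and overlaps Gm49366 on the same strand and an antisense gene. The muscle form of the Cpt1a enzyme, Cpt1b, was counted at 7.01 ± 1.03 CPM in no tumor (SD, n = 3), 7.97 ± 1.77 in KPC and 7.97 ± 0.95 in KPC IL6KO (SD, n = 4), and it was not called (0.18, SE 0.19, edgeR FDR 0.405). Cpt1b overlaps the gene Gm44502 on the same strand, where reads cannot be assigned to 1 gene. Acot6 (mean 2.24 CPM in no tumor and 1.84 CPM in KPC), Cpt1c (1.98 and 1.22 CPM), Plin3 (33.7 and 44.9 CPM) and Plin1 (79.2 and 14.6 CPM) were not called. Cpt1c was called without KPC 4 (-1.20) and Plin1 without no tumor 3 (-2.87) or KPC 2 (-3.49).

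In epididymal fat 0 of the 9 genes were called in any of the 3 comparisons, and the mice of each gene overlapped between all groups, while 10.9% of all genes had no overlap in KPC against no tumor, 2.01% in KPC IL6KO against no tumor and 4.33% in KPC against KPC IL6KO. The coefficient of variation between mice of a group was 63.5%, against 22.7% in muscle. Of 16962 genes 0% were called by edgeR's quasi-likelihood test in each comparison, while 2061 (KPC against no tumor), 1584 (KPC IL6KO against no tumor) and 1062 (KPC against KPC IL6KO) had an unadjusted p under 0.05, 0 of them members. The edgeR likelihood ratio test called 2.43%, 1.23% and 0.389% of the genes and DESeq2 3.46%, 1.73% and 0.74%, in both cases 0 members.

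The pads also differed in what they held. Gpx5, a gene of the epididymis, was between 21350 and 54960 CPM in 7 pads, which were no tumor 5 and 7, all 4 KPC pads and KPC IL6KO 6, and between 4.70 and 85.8 CPM in the other 5. All 10 epididymis markers were in the table. They summed to 96890, 15180, 78210 and 21630 CPM in no tumor 5 to 8 and to 40810, 68060, 47300 and 46090 CPM in KPC 5 to 8. In KPC IL6KO 5 to 8 the sums were 849.7, 95100, 18410 and 11510 CPM. Pads low for Gpx5 thus still held other epididymis transcripts. The Gpx5 limit therefore does not split pads with epididymis from pads without it. The 8 adipocyte markers, all present, summed to 4483, 27490, 1668 and 9731 CPM in no tumor 5 to 8, to 10730, 5188, 3426 and 2426 CPM in KPC 5 to 8, and to 4669, 5922, 17950 and 8061 CPM in KPC IL6KO 5 to 8. Macrophage markers summed to between 213 and 907 CPM in no tumor, 1045 and 1769 CPM in KPC mice and 367 and 3064 CPM in KPC IL6KO pads, and 6 neutrophil markers to between 3.09 and 6.57, 24.4 and 58.9, and 4.42 and 63.5 CPM. The 8 muscle fiber markers summed to between 17.1 and 284 CPM in no tumor, 9.46 and 11.6 CPM in KPC and 93.9 and 2466 CPM in KPC IL6KO pads, so that all KPC pads were below all others, and 6 of the 8 markers did not overlap between KPC and KPC IL6KO. The 8 epithelial and mesothelial markers summed to between 616 and 1463 CPM in no tumor, 1550 and 3270 CPM in KPC and 1167 and 3969 CPM in KPC IL6KO pads, and 4 of the 8 did not overlap between KPC and no tumor. As all KPC pads were high for Gpx5, tumor and epididymis content cannot be fully told apart, and the part of these cell types in the members' levels was not tested.

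Among genes of lipid storage and release, Plin2 was at 36.6, 229, 21.2 and 95.6 CPM in no tumor 5 to 8, at 488, 126, 81.7 and 117 CPM in KPC, and at 237, 59.1, 174 and 290 CPM in KPC IL6KO pads. The high pads were spread over all groups, led by KPC 5. The log2 fold change of KPC against no tumor was 1.09 (SE 0.80, edgeR FDR 0.628). In the KPC and no tumor pads high for Gpx5, 6 in all, the log2 fold change was 2.90 and was not called. This choice of pads was made after the data were seen. The 2 no tumor pads in it, no tumor 5 and 7, had the lowest adipocyte sums of their group, at 4483 and 1668 CPM.

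Angptl4 was at 71.4, 303, 10.9 and 55.0 CPM in no tumor, at 346, 149, 86.8 and 110 CPM in KPC, and at 273, 103, 363 and 297 CPM in KPC IL6KO pads. The range within no tumor covered all values of the other groups but 2, KPC 5 and KPC IL6KO 7. The log2 fold change was 0.65 (SE 0.81, edgeR FDR 0.757) for KPC and 1.23 (SE 0.82, edgeR FDR 0.661) for KPC IL6KO against no tumor. No tumor 7, the pad with the lowest adipocyte sum, was lowest for Angptl4, Plin2 and Ucp3.

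Plin5 was low in fat, at 5.98, 12.4, 14.3 and 14.4 CPM in no tumor, 16.5, 4.50, 7.88 and 4.00 CPM in KPC, and 3.46, 13.4, 23.2 and 6.36 CPM in KPC IL6KO pads, with a log2 fold change of -0.52 (SE 0.61, edgeR FDR 0.745) for KPC against no tumor. Ucp3 was at 5.65, 23.3, 1.07 and 5.00 CPM in no tumor, at 19.6, 4.30, 3.07 and 3.61 CPM in KPC, and at 5.99, 5.18, 16.8 and 14.2 CPM in KPC IL6KO pads, and its 4 highest values were in the 4 pads no tumor 6, KPC 5, and KPC IL6KO 7 and 8. The muscle fiber markers summed to 116, 9.46, 385 and 2466 CPM in these pads, and their part in the Ucp3 values was not tested. The log2 fold change of KPC against no tumor was -0.19 (SE 0.87, edgeR FDR 0.945), and 1.31 within the pads high for Gpx5, so its direction turned with the pads compared.

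Cpt1a and Ucp2 were among the higher members in fat. Cpt1a was at 418, 99.6, 253 and 80.5 CPM in no tumor, at 274, 212, 152 and 172 CPM in KPC, and at 214, 300.1, 98.2 and 155 CPM in KPC IL6KO pads. In no tumor and KPC IL6KO the pads high for Gpx5 were above the others of their group. Over all groups its range was 152 to 418 CPM in the 7 pads high for Gpx5 and 80.5 to 214 CPM in the 5 low ones. The log2 fold change of KPC against no tumor was -0.07 (SE 0.51, edgeR FDR 0.969), and -0.63 within the pads high for Gpx5.

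Ucp2 was at 434, 143, 346 and 90.2 CPM in no tumor, at 296, 311, 280 and 239 CPM in KPC, and at 302, 503, 158 and 343 CPM in KPC IL6KO pads. The KPC pads lay close together and within the range of both other groups. The median was 311 CPM in pads high and 158 CPM in pads low for Gpx5. KPC against no tumor gave 0.15 on the log2 scale (SE 0.47, edgeR FDR 0.916), -0.38 within the pads high for Gpx5 and -0.24 with Gpx5 as a covariate, so its direction turned as well.

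Acot1 was at 16.9, 8.75, 18.2 and 10.1 CPM in no tumor, at 35.9, 20.9, 15.9 and 23.9 CPM in KPC, and at 23.3, 25.8, 6.06 and 6.51 CPM in KPC IL6KO pads. It was higher in 3 of 4 KPC pads than in any no tumor pad, with a log2 fold change of 0.84 (SE 0.50, edgeR FDR 0.549). Acot2 was at 9.25, 15.3, 6.86 and 8.16 CPM in no tumor, at 13.2, 9.42, 6.77 and 8.94 CPM in KPC, and at 11.6, 10.4, 9.81 and 7.15 CPM in KPC IL6KO pads, the narrowest spread of the 9 genes as judged by its SE (-0.04, SE 0.31, edgeR FDR 0.967). Ehhadh was at 35.2, 86.9, 30.2 and 50.8 CPM in no tumor, at 151, 44.4, 23.8 and 31.7 CPM in KPC, and at 22.7, 52.5, 41.6 and 50.6 CPM in KPC IL6KO pads, with KPC 5 above all others (0.31, SE 0.57, edgeR FDR 0.841).

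**Figure D3:**
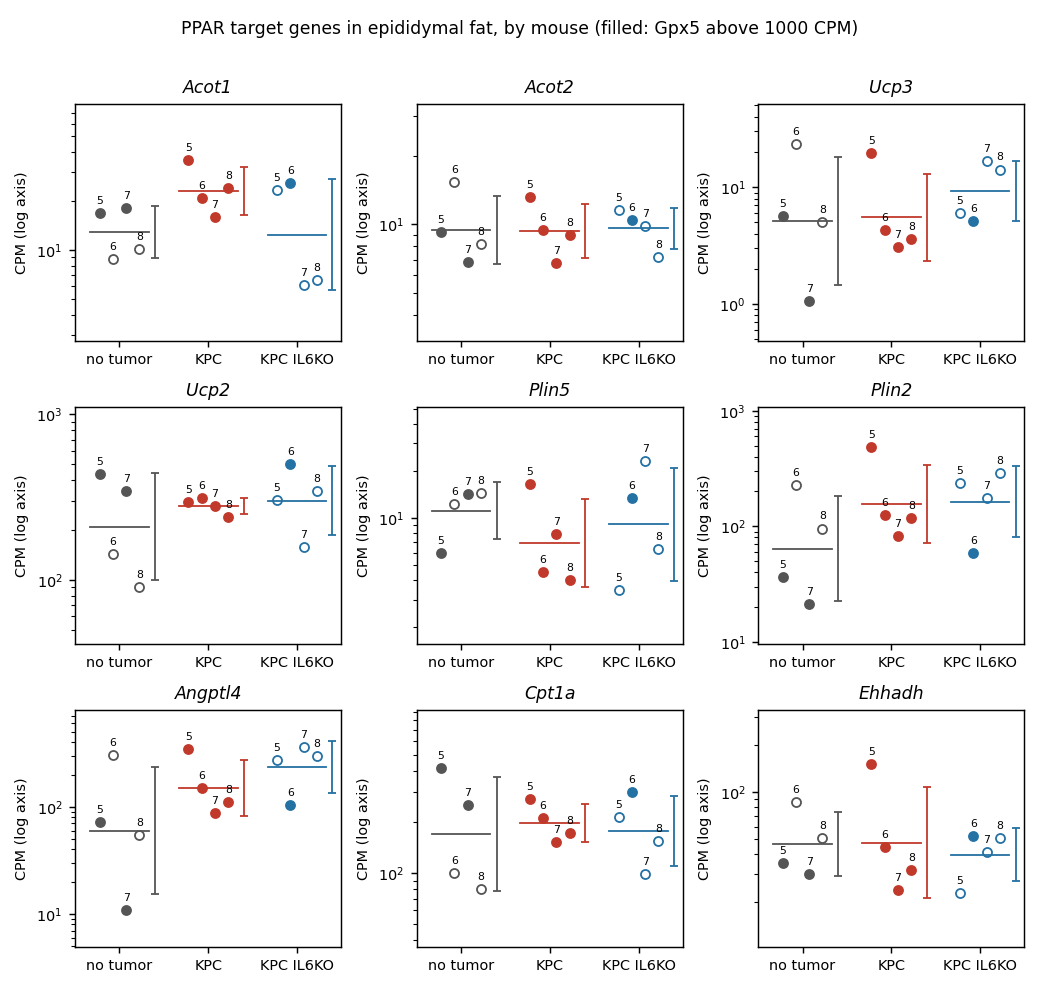
CPM of the 9 genes in epididymal fat on log axes, 1 point per mouse with its replicate number; lines and bars are the mean and SD of log2 CPM (n = 4 per group), and filled points are pads with Gpx5 above 1000 CPM. The groups overlap for all 9 genes.

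**Figure D4:**
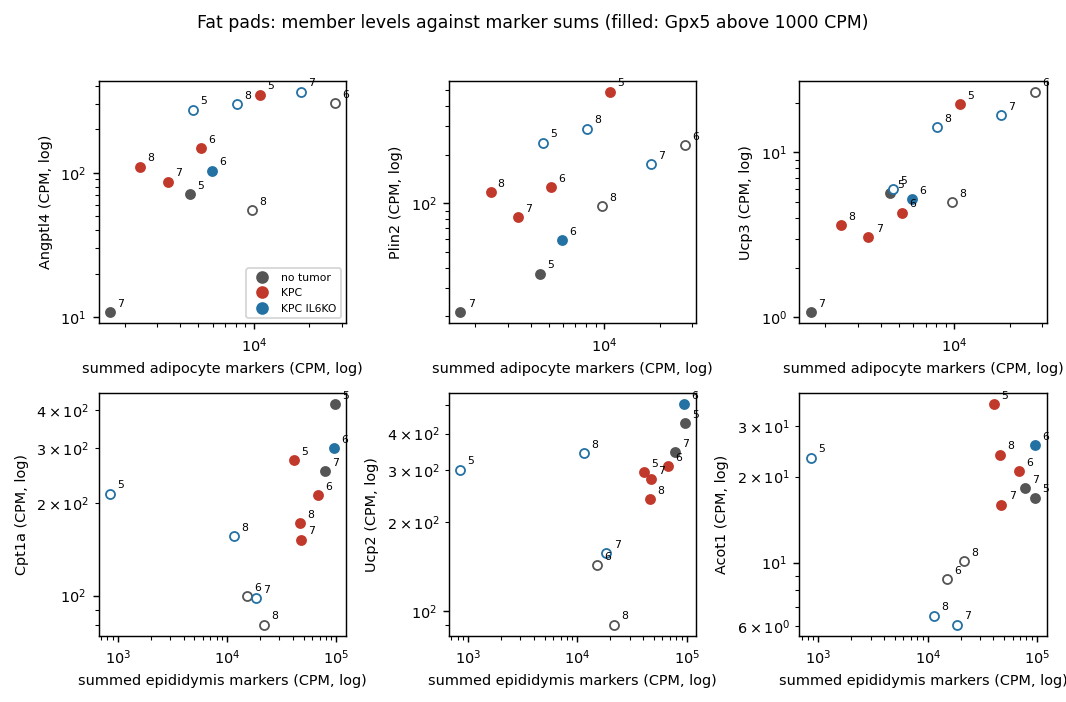
CPM in the 12 fat pads of Angptl4, Plin2 and Ucp3 against the sum of 8 adipocyte markers (top) and of Cpt1a, Ucp2 and Acot1 against the sum of 10 epididymis markers (bottom), on log axes, coloured by group and filled where Gpx5 was above 1000 CPM. No tumor 7 had the lowest adipocyte sum (1668 CPM) and the lowest Angptl4, Plin2 and Ucp3.

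Of the receptors, Pparg had a mean of 90.1 ± 86.6 CPM in no tumor, 36.4 ± 18.9 CPM in KPC pads and 66.1 ± 25.8 CPM in KPC IL6KO pads (SD, n = 4), and Ppara of 24.4 ± 8.43, 10.1 ± 4.05 and 14.01 ± 9.40 CPM. Their log2 fold changes for KPC against no tumor were -1.31 (SE 0.65, edgeR FDR 0.461) and -1.27 (SE 0.50, edgeR FDR 0.355), and that of Pparg was 0.37 within the pads high for Gpx5. Ppard (-0.35, SE 0.17), Rxra (-0.47, SE 0.33), Rxrb (0.13, SE 0.16) and Rxrg (-1.73, SE 0.80) were not called, at edgeR FDR between 0.423 and 0.755. Of 44 other targets 42 were in the table and 0 were called in each comparison by the quasi-likelihood test, with a median log2 fold change of -0.38 for KPC against no tumor beside -0.10 for all genes. The highest were Vnn1 (3.45, SE 0.92, edgeR FDR 0.233), a pantetheinase gene, with 13.4 to 59.1 CPM in KPC and 0.767 to 5.74 CPM in no tumor pads, and Pdk4 (2.67, SE 0.90, edgeR FDR 0.298). The lowest were Aqp7 (-2.60, SE 0.78, edgeR FDR 0.258) and Lpl (-2.57, SE 0.86, edgeR FDR 0.29), the lipoprotein lipase gene. DESeq2 called all 4 and the likelihood ratio test Vnn1 and Aqp7. In KPC IL6KO against no tumor each of these tests called 2 of the 42 genes, both higher.

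Of the near copies, 10 of 12 were in the fat table. Acot3, a peroxisomal thioesterase gene in the same cluster as Acot1, was at 0, 0.138, 0.0233 and 0.0632 CPM in no tumor, at 6.57, 2.18, 0.606 and 1.53 CPM in KPC, and at 0.0736, 0.206, 0 and 0.122 CPM in KPC IL6KO pads. All KPC pads were above all others, and the no tumor values were at or near the limit of detection. The gene was not called by the quasi-likelihood test (5.51, SE 1.21, edgeR FDR 0.191), but was called by DESeq2 and the likelihood ratio test. It shares 129 windows with Acot1 and overlaps other annotated genes on both strands. Acot4 (4.25 CPM in no tumor and 7.03 CPM in KPC on average), Acot6 (5.02 and 2.95 CPM), Cpt1b (0.628 and 0.257 CPM), Cpt1c (12.3 and 8.79 CPM), Plin1 (385 and 74.3 CPM), Plin3 (85.5 and 84.8 CPM), Plin4 (1087 and 544 CPM) and Ucp1 (2.19 and 0.627 CPM) were not called.

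The members stood in different orders in the 2 tissues. Per kilobase of exon and in no tumor mice, quadriceps had Ucp3 first (56.3 CPM), followed by Plin5 (18.8 ± 5.06), Plin2 (14.3 ± 4.81), Angptl4 (6.62 ± 5.00), Ehhadh (4.30 ± 1.14), Acot2 (4.27 ± 0.585), Ucp2 (2.69 ± 0.246), Cpt1a (1.67 ± 0.160) and Acot1 (0.198 ± 0.00449) (SD, n = 3). From Plin5 to Acot2 each gene overlapped its neighbour within 1 SD, and Ucp3 stood above Plin5, Acot2 above Ucp2, Ucp2 above Cpt1a and Cpt1a above Acot1 by more than that. Fat had Ucp2 first (36.3 ± 23.4), then Angptl4 (31.1 ± 37.1), Cpt1a (27.8 ± 20.5), Plin2 (27.2 ± 26.9) and Ehhadh (17.0 ± 8.60), which overlapped within 1 SD. Lower means were those of Plin5 (5.64 ± 1.91), Acot2 (4.51 ± 1.71), Acot1 (3.44 ± 1.21) and Ucp3 (2.79 ± 3.16) (SD, n = 4). Within 1 SD, each of these lower genes still overlapped Angptl4 and Plin2, and Plin5 also overlapped Cpt1a. The length used was that of all annotated exons of a gene together. For Ucp2 it was 6989 bases against 3988 in its longest coding transcript, and for Plin2 3512 against 1888. The order of the genes, that of Acot2 and Ucp2 and of Plin5 and Plin2 included, therefore depends on the length used. Levels of the tissues come from tables normalized separately.

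The change in KPC against no tumor was compared between the tissues in 1 edgeR fit of all 23 libraries over the 12599 genes in both tables. The change was larger in quadriceps for 3 of the 9 genes, Acot1 by 4.17 (SE 0.96, edgeR FDR 0.00228), Acot2 by 3.50 (SE 0.48, edgeR FDR 2.44e-05) and Plin5 by 2.25 (SE 0.76, edgeR FDR 0.0254) on the log2 scale. Of all genes 18.1% were called in that direction and 36.9% in either direction. The Plin5 difference was not called without quadriceps no tumor 3 (2.04), quadriceps KPC 4 (2.00) or fat KPC 6 (2.04). Those of Ucp3 (1.96, SE 1.01, edgeR FDR 0.132), Ucp2 (0.95, SE 0.53, edgeR FDR 0.161) and Plin2 (-1.33, SE 0.92, edgeR FDR 0.26) were not called, and each was called when 1 fat library was left out, Ucp3 without no tumor 7 (2.33) or KPC 5 (3.02), Ucp2 without no tumor 8 (1.23) and Plin2 without no tumor 6 (-2.21). Cpt1a (-0.69), Angptl4 (-0.76) and Ehhadh (-0.16) were not called either. For KPC IL6KO against no tumor 0 of the 9 genes and 0% of all genes were called. The tissues were prepared separately, so that tissue and preparation cannot be told apart. The labels do not say whether muscle and fat came from the same mice, and the fit treated all libraries as independent.

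**Figure D5:**
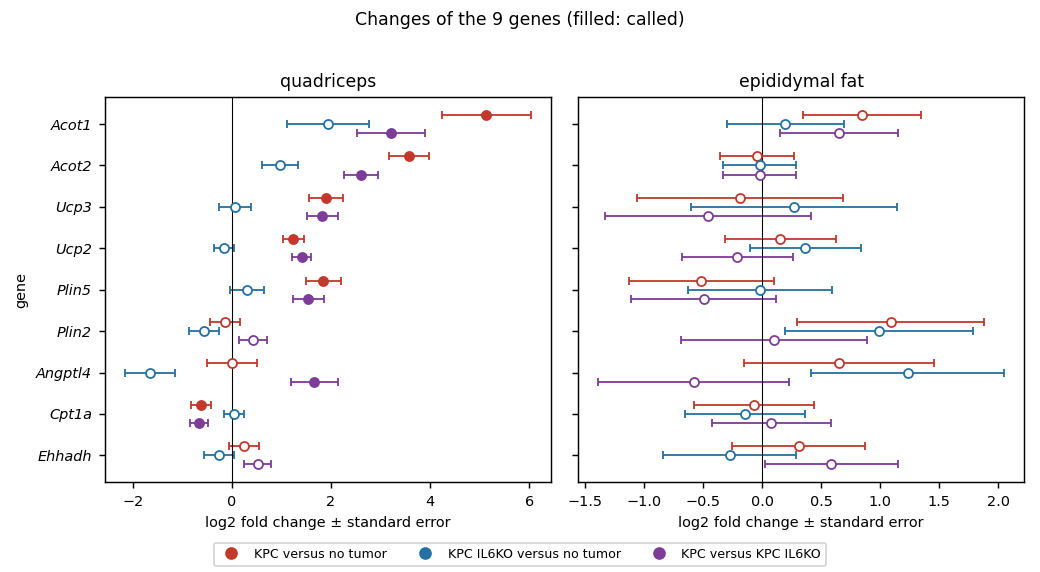
Log2 fold changes (± SE) of the 9 genes in quadriceps (left) and epididymal fat (right), on different horizontal scales, for the 3 comparisons; filled points were called. In quadriceps the called values ran from 5.14 for Acot1 to -0.67 for Cpt1a, and in fat no point was called.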

How the data were processed

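Libraries were assigned to tissue, group and replicate number from their titles. Per the labels and the study's methods, the authors aligned reads with STAR to mm10, counted uniquely mapped reads per gene with featureCounts 1.5.1, and deposited 1 table of unnormalized counts per tissue, which lack low-count genes by a rule not given in the sources used here. The named library kits differ between the labels and the methods, and the strand setting of the counting is not given in the sources used here. R 4.3.3 with edgeR 4.0.16 was used (TMM, glmQLFit and glmQLFTest, the 3 groups of a tissue in 1 fit, Benjamini-Hochberg over all genes), with DESeq2 1.42.0 as an alternative, and Python 3.11.15 with matplotlib 3.10.9 for plots. filterByExpr removed 0 genes. Alternatives were DESeq2, the likelihood ratio test, the newer quasi-likelihood fit, RLE normalization, other filters, fits of only the groups compared, a replicate block, Gpx5 as a covariate or a limit of 1000 CPM in fat, and each library left out. The members and gene lists were chosen with earlier results of these data known. The named genes were all members, the PPARs and RXRs, the 4 highest and 4 lowest called of the other PPAR targets (in fat, where 0 were called, the 2 highest and 2 lowest), the near copies, of which 1 is not reported here, and the 5 genes per tissue most like the members. Sequences and positions came from RefSeq and GENCODE M21. Same-group libraries differed by a chi-square per degree of freedom of at least 28.9, so that none was counted as a duplicate. Precision was limited by the number of mice and, at low counts, by depth. The pipeline was tested on simulated data.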

Additional observations from a re-analysis of the deposited data

Results flagged for a closer look

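Among groups of 4 mice, single values far from the others were found for 4 member and group pairs in quadriceps. Chance sets a sample apart by this measure in about 1 of 20 groups. All members were searched in KPC and KPC IL6KO quadriceps and in every group of fat, so that some such values are expected by chance. In KPC IL6KO mice, replicate 3 had 7.88 CPM of Acot1 (others 1.05 to 1.48) and 35.3 CPM of Acot2 (others 11.95 to 13.8), and replicate 2 had 11.3 CPM of Ucp2 (others 18.1 to 19.0). In KPC mice, replicate 4 had 14.4 CPM of Angptl4 (others 25.5 to 28.1).

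The change in KPC against no tumor differed between quadriceps and fat by 4.17 for Acot1, 3.50 for Acot2 and 2.25 for Plin5 on the log2 scale, each called by edgeR's test of the difference.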

How the results depend on the processing

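Every alternative was fitted over all genes. Of 513 values of the members under other settings, 492 kept direction and call, 1 lost its call, 0 gained one and 20 turned direction. Of 1035 values with 1 library left out, 954 kept both, 8 lost and 5 gained a call, and 68 turned. Acot1, Acot2, Ucp2, Ucp3 and Plin5 stayed called in quadriceps in KPC against both other groups under all of them. The cause of the changes was not tested. Depth limits Acot1 and Acot4 in no tumor muscle, Acaa1b in KPC muscle and Acot3 in fat, which had few counts. The number of mice and the spread between fat pads limit the other values. The choice of pads by Gpx5 was added after the data were seen.

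Nothing in the labels ties same-numbered mice together, and their deviations from the group means correlated between -0.155 and 0.265 in quadriceps and between -0.54 and 0.65 in fat, so the numbers do not pair them. With a replicate block 0 members were called lower in quadriceps in KPC against no tumor (Cpt1a -0.58), and 8 other PPAR targets were; Cpt1c (-1.04) and Plin1 (-2.45) were called. In fat the block turned Cpt1a to 0.0516 (KPC against no tumor), Acot1 to -0.0097 and Acot2 to 0.015 (KPC IL6KO against no tumor) and Plin2 to -0.21 (KPC against KPC IL6KO). No paired analysis was possible because the labels give no shared replicate numbers across tissues for the difference between tissues, and whether the same mice gave both tissues is not known. Leaving out 1 library, the members called lower ranged from 0 to 1 in KPC against no tumor and from 0 to 1 in KPC against KPC IL6KO.

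Angptl4 in quadriceps, KPC against no tumor, was -0.0038 with the newer quasi-likelihood fit and -0.0308 with at least 10 counts in every library. In fat, KPC against no tumor, pads above the Gpx5 limit gave 0.34 for Acot2, -0.38 for Ucp2, 1.31 for Ucp3, 0.37 for Pparg and 0.13 for Rxra, and a Gpx5 covariate -0.24 for Ucp2 and 0.74 for Ucp3. In KPC IL6KO against no tumor the covariate gave -0.0365 for Ucp3 and 0.45 for Cpt1a, and pads below the limit -0.21 and 0.78. In KPC against KPC IL6KO the covariate gave -0.0060 for Acot1, 0.0298 for Acot2, 0.78 for Ucp3, 0.72 for Angptl4 and -0.94 for Cpt1a.

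With 1 library left out, values that turned ranged as follows. Quadriceps, KPC against no tumor: Angptl4 -0.37 to 0.79, Plin2 -0.51 to 0.15, Ppara -0.0712 to 0.43, Pparg -0.86 to 0.37. Quadriceps, KPC IL6KO against no tumor: Ucp3 -0.13 to 0.24, Cpt1a -0.14 to 0.15, Plin5 -0.0134 to 0.45. Fat, KPC against no tumor: Acot2 -0.24 to 0.25, Ucp2 -0.13 to 0.54, Ucp3 -1.26 to 0.97, Cpt1a -0.34 to 0.49, Ehhadh -0.61 to 0.70. Fat, KPC IL6KO against no tumor: Acot1 -0.17 to 0.48, Acot2 -0.16 to 0.27, Ucp3 -0.10 to 1.43, Cpt1a -0.45 to 0.41, Ehhadh -0.46 to 0.11, Plin5 -0.63 to 0.28. Fat, KPC against KPC IL6KO: Acot2 -0.22 to 0.11, Ucp2 -0.41 to 0.0741, Cpt1a -0.11 to 0.38, Ehhadh -0.33 to 0.86, Plin2 -0.81 to 0.37, Plin5 -1.09 to 0.14. Difference between tissues: Angptl4 -2.03 to 0.0331 and Ehhadh -0.54 to 0.76 for KPC, and Cpt1a -0.30 to 0.49, Ehhadh -0.32 to 0.29 and Ucp3 -1.34 to 0.17 for KPC IL6KO, each against no tumor.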

Other observations

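The genes whose log2 CPM followed the mean standardized level of the 9 genes most closely, the members left out, were Fbxo4 (Pearson r 0.948), Trrap (0.944), Ppapdc2 (0.934), Supt16 (0.929) and Phka2 (0.928) over the 11 quadriceps libraries, of 10511 genes compared. In fat they were Ppa1 (0.972), Foxo4 (0.922), Slc25a20 (0.921), Trmu (0.921) and Ttpal (0.920) over 12 libraries and 13907 genes. Of these, Slc25a20 encodes the carnitine-acylcarnitine carrier and is itself on the list of other PPAR targets. The points share their groups, and these values are a description.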
